A study of Mus musculus with 3 samples.

Results

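The genes described here are the ligands and receptors that keep tissue macrophages alive and let them clear dying cells, read across the cell classes of the mouse left ventricle. All rows whose symbol is Csf1, Il34, Csf1r, Gas6, Pros1, Axl, Mertk or Tyro3 were taken, 8 genes of the 30360 in the files, and every one of the 8 was found in each library. The rule reads gene names and no measured value, while the list of names was drawn up with earlier results of these data known.

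Left ventricular cells of C56Bl6 mice, as the labels spell the strain, were profiled in 3 droplet libraries, each made from 4 pooled samples, with 1 library per group. Control mice had a control diet for 10 weeks, and no vector is named for them. Both other groups had a High-Fat + L-NAME diet (L-NAME blocks nitric oxide synthases) for 6 weeks, a combination that brings on HFpEF (heart failure in which ejection is preserved) in mice. Adeno-associated virus was given for 4 weeks, carrying a scrambled hairpin in HFpEF-scr and one directed at FoxO1 in HFpEF-FoxO1-sh. The promoter of the hairpins, the cells they reach, and the age and sex of the mice are not given in the sources used here. Diet and the presence of a vector both differ between Control and the other groups and cannot be told apart. The labels do not make clear whether the 4 weeks of vector add to the 6 weeks of diet, so the total time on the HFpEF diet is not known here.

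Control gave 12757 kept cells, HFpEF-scr 14567 and HFpEF-FoxO1-sh 16854, with a median of 6520 to 6889 UMIs (unique molecular identifiers, each standing for 1 captured RNA molecule). The share of all barcodes over the 20% limit on mitochondrial UMIs was 56.9% for Control and 53.8% for HFpEF-scr but 31.2% for HFpEF-FoxO1-sh. Each pair of libraries shared 37 to 61 kept barcodes, at most 0.419% of the smaller library. Foxo1 itself stood at 61.1 CPM in Control, 56.2 CPM in HFpEF-scr and 59.7 CPM in HFpEF-FoxO1-sh over all kept cells (CPM here means the gene's UMIs divided by all UMIs of the summed cells, times 1e6). The library labelled HFpEF-FoxO1-sh was thus not lower than HFpEF-scr, with a ratio of 1.06 (interval 1.03 to 1.1). Cells fell into 52 clusters, and the 12 classes with at least 50 cells in every library are compared below. A class name stands for cells that resemble that type by markers, and none of the 8 genes was a marker or took part in the clustering.

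Csf1 and Il34 are the 2 ligands of Csf1r, the receptor tyrosine kinase on which monocyte-derived and resident macrophages depend for survival and growth. Gas6 and Pros1 (protein S, also an anticoagulant cofactor) are vitamin K-dependent proteins that bind phosphatidylserine exposed on dying cells. They bridge such cells to the receptor kinases Tyro3, Axl and Mertk, the TAM family, and Mertk is the member best known for driving engulfment of dead cells (efferocytosis) by macrophages. In heart muscle, resident macrophages use this system to take up debris shed by cardiomyocytes.

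Gas6, Pros1 and Mertk were all highest, among macrophages, in the group of clusters named by Folr2, as described further on. The stretches just upstream of their start sites are therefore shown first. RefSeq promoter windows on GRCm38.p6 were found for 6 of the 8 genes, and the 250 bases before the annotated start are printed 5′ to 3′ on the strand of the gene. Capitals mark the GC box GGGCGG on either strand (CCGCCC on the other), the core that Sp-family factors can bind. Gas6 lies at chr8:13494536-13494785 on the minus strand, Pros1 at chr16:62854057-62854306 on the plus strand, and Mertk at chr2:128698665-128698914 on the plus strand.
Gas6: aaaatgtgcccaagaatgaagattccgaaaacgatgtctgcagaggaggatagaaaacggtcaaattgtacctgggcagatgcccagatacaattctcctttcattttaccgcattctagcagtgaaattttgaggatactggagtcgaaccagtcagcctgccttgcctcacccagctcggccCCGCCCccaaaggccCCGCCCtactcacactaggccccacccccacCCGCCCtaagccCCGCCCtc
Pros1: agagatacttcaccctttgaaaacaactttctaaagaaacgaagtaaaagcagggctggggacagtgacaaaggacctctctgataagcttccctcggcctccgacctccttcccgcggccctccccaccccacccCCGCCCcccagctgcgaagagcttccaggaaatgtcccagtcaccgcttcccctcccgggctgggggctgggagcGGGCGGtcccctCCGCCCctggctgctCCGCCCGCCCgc
Mertk: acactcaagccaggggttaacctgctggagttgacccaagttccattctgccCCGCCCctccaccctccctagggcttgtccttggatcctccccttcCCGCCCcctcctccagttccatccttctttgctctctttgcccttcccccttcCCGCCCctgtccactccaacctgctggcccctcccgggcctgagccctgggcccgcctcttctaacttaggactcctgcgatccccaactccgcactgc
These windows hold 4, 5 and 3 GC boxes, overlapping ones counted singly. A GC box was present in 32.7% of the 32851 RefSeq windows of that length, so its presence is common. Neither GAGGAA, the core of sites for the macrophage factor PU.1 (in 23.3% of windows), nor the AP-1 site TGANTCA (in 6.75%) occurred in the 3 windows on either strand. A match describes letters only, and a missing match says only that these letters are not in this window.

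On mm10, Csf1 lies on chromosome 3 from 107741048 to 107760469, Il34 on chromosome 8 from 110741829 to 110805924 and Gas6 on chromosome 8 from 13465374 to 13494490. Pros1 lies on chromosome 16 from 62854307 to 62929346, Axl on chromosome 7 from 25757273 to 25788705, Mertk on chromosome 2 from 128698956 to 128802894 and Tyro3 on chromosome 2 from 119797733 to 119818104, while Csf1r lies on chromosome 18. The 3′ end of Gas6 overlaps Tmem255b (13435189 to 13468473) and that of Csf1r overlaps Hmgxb3, both on the opposite strand. Whether counting used strand is not given in the sources used here, so a few reads of these neighbours could be counted for either gene. The kit captures 3′ ends, per the labels' protocols, so a gene's level is compared with its own level in other cells. Where UMIs of a gene are given per UMIs of a second one, that ratio is compared between classes only.

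Csf1r was a gene of the mononuclear phagocytes. In macrophages it stood at 978 CPM in Control, 909 CPM in HFpEF-scr and 938 CPM in HFpEF-FoxO1-sh (7785, 9189 and 12377 UMIs). All 3 libraries lay close together, and macrophages held 79.6% to 89.8% of all Csf1r UMIs. A Csf1r UMI was seen in 98.4%, 96.9% and 96.3% of macrophages in that order, at median depths of 6646, 5940 and 6317 UMIs. In fibroblasts, which should lack it, the share was 0.502%, 0.663% and 0.573% at median depths of 6748, 6442 and 6814 UMIs. With every cell thinned to 1000 UMIs, the shares in macrophages were 60.9%, 58.6% and 58.9%, and their intervals overlapped.

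Monocytes followed macrophages, with Csf1r at 411 CPM in Control, 565 CPM in HFpEF-scr and 511 CPM in HFpEF-FoxO1-sh. Within monocytes, the cluster led by Adgre4 and Ear2, genes of patrolling monocytes, had 538, 876 and 709 CPM. The cluster led by Plac8 and Chil3, genes of classical monocytes, had 369, 471 and 449 CPM. The former was therefore higher in all 3 libraries, and in it Csf1r was 1.63 times as high in HFpEF-scr as in Control (exact 95% counting interval 1.27 to 2.1, on 332 and 81 UMIs), where 7.12% of the genes measured in it were called by the rule given below. Dendritic cells came next at 58.2, 82.4 and 59.7 CPM. Almost all of that came from the cluster led by Cd209a, with 90.7, 118 and 81.5 CPM. The one led by H2-Ab1 and Xcr1, the cross-presenting type, had 5.1, 16.1 and 6.33 CPM. Every other compared class was at 23.5 CPM or less in each library.

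In the class sums of endothelial cells, smooth muscle and fibroblasts, Csf1r stood to C1qa, a complement gene of macrophages, in about the macrophage ratio. Macrophages held 153, 156 and 137 Csf1r UMIs per 1000 C1qa UMIs, with the libraries in the order Control, HFpEF-scr, HFpEF-FoxO1-sh that is kept throughout. Endothelial cells held 179, 239 and 133 per 1000, and the intervals (142 to 224, 129 to 417 and 92.4 to 187) each held the macrophage value of their own library. The same was so in smooth muscle, at 195, 111 and 197 per 1000. Fibroblasts had 167, 212 and 119 per 1000, and their interval in HFpEF-scr (159 to 280) began just above the macrophage value there, whose own interval reached 160. Above the macrophage value were also the erythroid class in HFpEF-scr (750, interval 423 to 1314), endocardial cells in Control (467, interval 161 to 1216) and lymphatic endothelial cells in HFpEF-FoxO1-sh (429, interval 173 to 976), on 24, 7 and 9 Csf1r UMIs. Monocytes had 4920, 9078 and 58250 per 1000, far above that ratio, on only 50, 102 and 4 C1qa UMIs. In single fibroblasts the 2 genes were mostly seen apart. Of the 39, 57 and 58 fibroblasts with a Csf1r UMI, 36, 50 and 47 had no C1qa UMI.

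**Figure D1:**
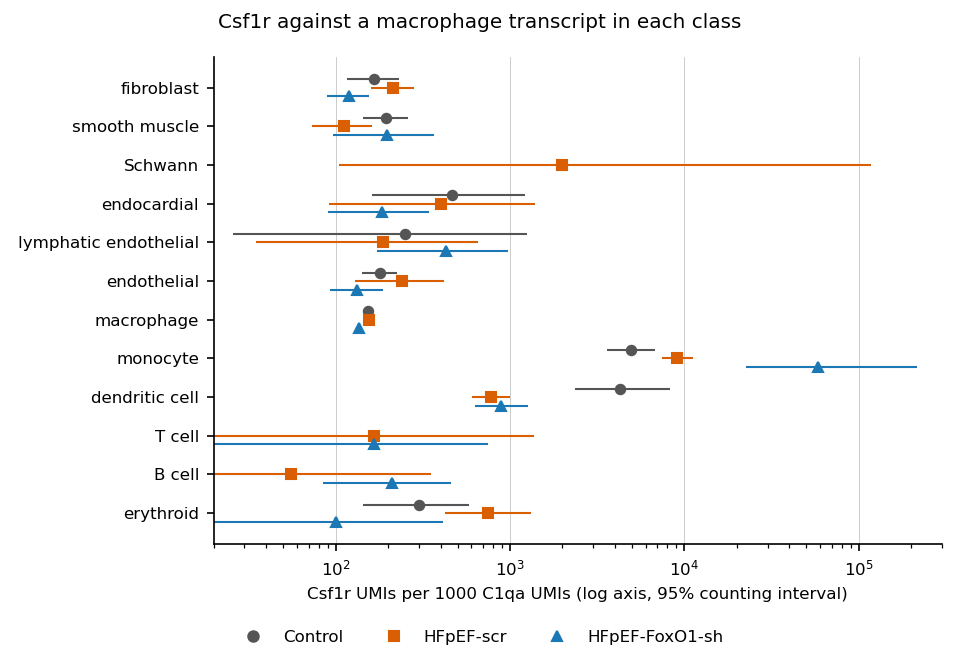
Csf1r UMIs per 1000 C1qa UMIs (log axis) in each class, 1 point per library with its 95% counting interval; libraries with no Csf1r UMI in a class are not drawn. Endothelial cells, smooth muscle and fibroblasts lay between 111 and 239, around the macrophage values of 137 to 156, while monocytes lay at 4920 or more.

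The called differences of Csf1r outside phagocytes have to be read beside those ratios. In endothelial cells Csf1r was at 23.5 CPM in Control, 2.83 CPM in HFpEF-scr and 9.63 CPM in HFpEF-FoxO1-sh, a ratio of 0.12 (interval 0.066 to 0.206) in HFpEF-scr over Control and of 3.41 (interval 1.85 to 6.54) in HFpEF-FoxO1-sh over HFpEF-scr. Of all genes measured in endothelial cells 5.08% and 6.35% were called in these comparisons. C1qa in the same cells was at 131, 11.8 and 72.2 CPM, so both genes were lowest in HFpEF-scr. The 93, 16 and 38 Csf1r UMIs lay in only 13, 8 and 10 endothelial cells, and the intervals cover counting error only. In smooth muscle Csf1r was at 13.4, 8.41 and 3.36 CPM, with ratios of 0.627 (interval 0.388 to 0.996) and 0.4 (interval 0.186 to 0.804), beside C1qa at 68.8, 75.7 and 17.1 CPM, with 4.93% and 5.5% of all genes called. The 55, 30 and 12 Csf1r UMIs lay in 13, 10 and 4 smooth muscle cells. In the erythroid class Csf1r had 24 UMIs in HFpEF-scr against 2 in HFpEF-FoxO1-sh, a ratio of 0.137 (interval 0.0157 to 0.551), where 5.56% of genes were called. These erythroid UMIs lay in 7 and 2 cells. The part of macrophage RNA in these differences was not tested.

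The ligands of Csf1r came from different cells. Csf1 was highest, among the 12 classes, in fibroblasts and in endocardial cells, the lining of the heart chambers. Fibroblasts had 79.3 CPM in Control, 91 CPM in HFpEF-scr and 93 CPM in HFpEF-FoxO1-sh, and endocardial cells 75.4, 86.5 and 88.7 CPM, so these 2 classes overlapped. Endothelial cells (48.5, 58.1 and 44.1 CPM), Schwann cells (46, 53 and 48.4 CPM) and smooth muscle (30.7, 39.8 and 30 CPM) followed. Fibroblasts, the most numerous class, held 67.5%, 71% and 79% of all Csf1 UMIs. Within fibroblasts all 6 clusters had Csf1 between 66.5 and 110 CPM, with the highest values in the cluster led by Pi16 and Cd248 (94.9, 108 and 110 CPM), genes of adventitial fibroblasts, and that led by Igfbp3 and Mmp3 (90.4, 108 and 109 CPM), which overlapped it. Macrophages had almost none, with 14, 28 and 53 UMIs or 1.76, 2.77 and 4.01 CPM.

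Il34 was highest, among the 12 classes, in Schwann cells, with smooth muscle and endothelial cells next and overlapping. Schwann cells had 50.7, 33.6 and 38.1 CPM, smooth muscle 9.51, 12.9 and 14.9 CPM and endothelial cells 13.6, 10.1 and 13.4 CPM. Pericytes, the mural cells of capillaries, were too few for the comparison (39 in HFpEF-scr) and had 96.6, 102 and 134 CPM on 63, 24 and 150 UMIs. Their intervals were 74.2 to 124, 65.3 to 152 and 113 to 157, all above smooth muscle. In endothelial cells the gene sat almost wholly in the cluster with Sox17, a factor of arterial endothelium, among its 10 leading genes. That cluster had 37.8, 30.9 and 36.1 CPM. The other endothelial cells had 0, 1.73 and 0.399 CPM. In the endothelial class as a whole the 12 pericyte markers summed to 4049, 3370 and 4770 CPM, and the part of pericyte RNA in its Il34 was not tested. Endocardial cells had no Il34 UMI in any library, and the 3 counts that a count of 0 allows would be 0.723, 1.11 and 1.06 CPM. In the same cells Csf1 was near its own highest level. Fibroblasts were low at 3.02, 5.91 and 3.76 CPM, but because of their number held 41.3% to 61.8% of all Il34 UMIs.

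**Figure D2:**
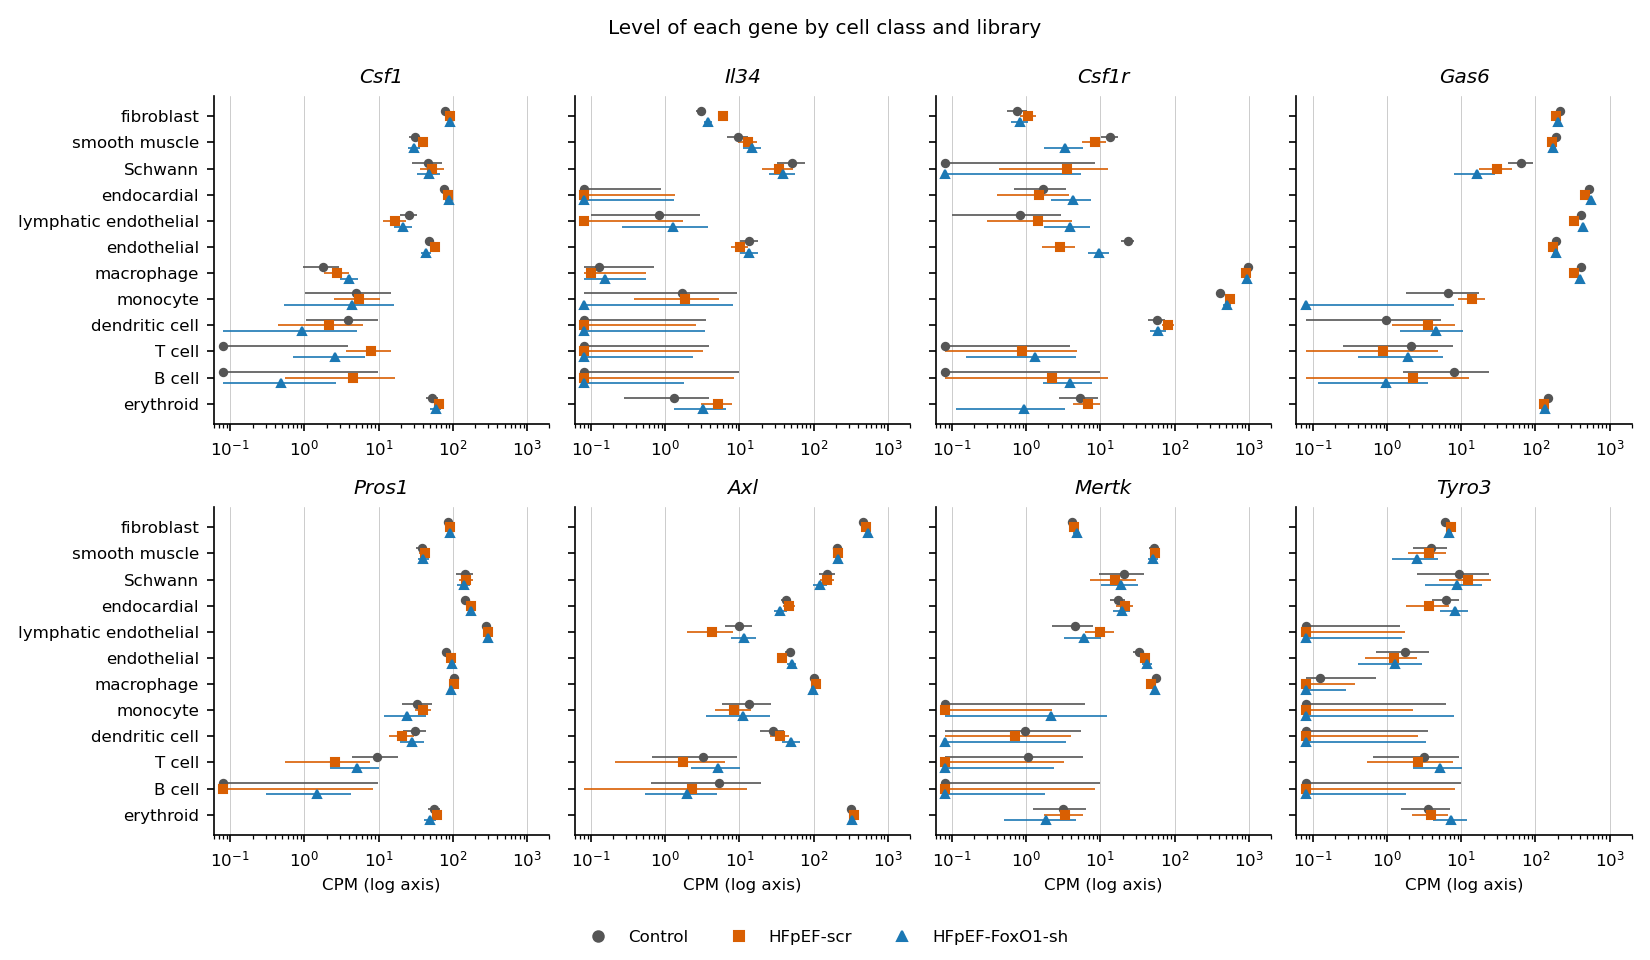
CPM of the 8 genes (log axis) in 12 cell classes, 1 point per library with its 95% counting interval; libraries without a UMI are drawn at the left edge. Csf1r stood above 400 in macrophages and monocytes, Axl highest in fibroblasts (466 to 539), Gas6 in endocardial cells (466 to 560) and Pros1 in lymphatic endothelium (283 to 303).

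Of the bridging ligands, Gas6 was highest, among the 12 classes, in the endocardium, at 523 CPM in Control, 466 CPM in HFpEF-scr and 560 CPM in HFpEF-FoxO1-sh. Lymphatic endothelial cells (405, 332 and 440 CPM) and macrophages (412, 331 and 404 CPM) came next and overlapped. Mesothelial cells, too few for the comparison (45 in HFpEF-scr), were higher than endocardium, with 785, 528 and 663 CPM. HFpEF-scr was the lowest library in these 3 classes and also in fibroblasts, endothelial cells and smooth muscle. Fibroblasts had 217, 190 and 204 CPM and held 48.9% to 52.6% of all Gas6 UMIs, macrophages 13.5% to 19%. Macrophages had only 40.5, 36.1 and 35.8 CPM of Dcn, the fibroblast proteoglycan that stood at 16309 to 16439 CPM in fibroblasts. Their Gas6 came to 10177, 9173 and 11286 UMIs per 1000 Dcn UMIs, against 13.3, 11.7 and 12.4 in fibroblasts. Macrophages were thus far from the fibroblast ratio in all 3 libraries.

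Pros1 had another order. Lymphatic endothelial cells led at 283, 303 and 300 CPM, followed by endocardial cells (145, 174 and 178 CPM) and Schwann cells (145, 152 and 141 CPM), whose intervals overlapped. Macrophages had 103, 104 and 94 CPM, fibroblasts 87.5, 92.7 and 92.2 CPM and endothelial cells 80.9, 94 and 97.3 CPM. Lymphatic endothelium was thus high for both bridging ligands, while its receptors were low (Axl 9.84, 4.29 and 11.6 CPM, Mertk 4.51, 10 and 5.99 CPM, no Tyro3 UMI).

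Of the receptors, Axl was the fibroblast one. Fibroblasts had 466 CPM in Control, 501 CPM in HFpEF-scr and 539 CPM in HFpEF-FoxO1-sh, and held 84.3%, 83.7% and 88.2% of all Axl UMIs. Smooth muscle had 204, 214 and 210 CPM, Schwann cells 152, 152 and 123 CPM and macrophages 100, 106 and 96.7 CPM. The erythroid class had 319, 353 and 325 CPM, but with 26.2, 28.8 and 28.8 Axl UMIs per 1000 Dcn UMIs, close to the 28.5, 30.7 and 32.8 of fibroblasts. Its Dcn level of 11288 to 12234 CPM marks it as barcodes that hold fibroblast RNA, and its levels of these genes are not ranked among the classes. Among endothelial cells Axl was again in the Sox17 cluster, at 122, 109 and 128 CPM, against 5.14, 7.92 and 6.38 CPM in the others.

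Among fibroblast clusters, Axl and Gas6 pointed to different cells. Axl was at 914, 974 and 981 CPM in the cluster led by Pi16 and Cd248, and between 287 and 466 CPM in the other 5 clusters. Gas6 in the Pi16 cluster was the lowest of the 6, at 119, 109 and 114 CPM. It was highest in the cluster led by Igfbp3 and Mmp3, at 427, 410 and 488 CPM. No cluster overlapped the Pi16 cluster for Axl or the Igfbp3 cluster for Gas6 in any library. The Pi16 cluster made up 16.4%, 21.1% and 22.9% of fibroblasts, and Axl over all fibroblasts had the same order. Cells led by Wif1 and Dkk3, left unnamed because no class had 3 of its markers there, had Gas6 at 327, 251 and 405 CPM.

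**Figure D3:**
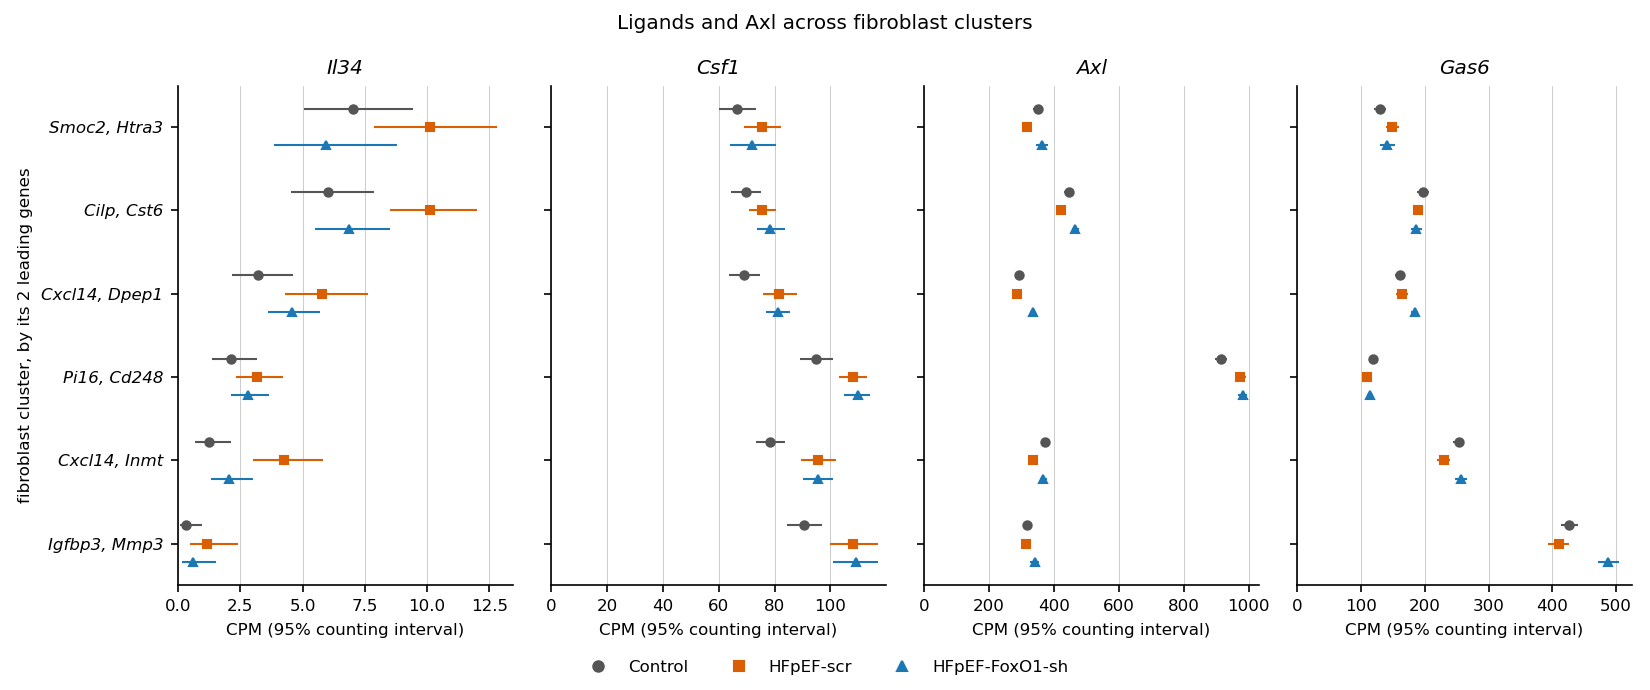
CPM of Il34, Csf1, Axl and Gas6 in 6 fibroblast clusters named by their leading genes, 1 point per library with its 95% counting interval. Axl stood apart in the Pi16 cluster (914 to 981) and Gas6 in the Igfbp3 cluster (410 to 488), and Il34 was higher in HFpEF-scr than in both other libraries in all 6.

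Mertk had 2 main sites. Macrophages had 56.7, 47.6 and 54.6 CPM and smooth muscle 52.4, 54.1 and 51 CPM, and these overlapped. Endothelial cells had 33.1, 39.9 and 42.8 CPM and endocardial cells 17.1 to 21.2 CPM. Fibroblasts had 4.15, 4.48 and 4.78 CPM. Monocytes and dendritic cells were at or near 0, with 1 and 2 Mertk UMIs over all libraries. Mertk therefore separated macrophages from monocytes, which share Csf1r with them.

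Tyro3, better known from the nervous system, was low in every class. Fibroblasts had 6.08, 7.33 and 6.78 CPM and endocardial cells 6.26, 3.71 and 8.12 CPM, which overlapped. Schwann cells had 9.21, 12.4 and 8.8 CPM, but on 17 UMIs in all, and their intervals (2.51 to 23.6, 4.98 to 25.5 and 3.23 to 19.1) held the fibroblast values. The unnamed cells led by Wif1 and Dkk3 had 10.4, 14.3 and 12.4 CPM on 62, 80 and 66 UMIs, above fibroblasts in each library. Macrophages had 1 UMI in Control and none in the other libraries, and monocytes, dendritic cells, B cells and lymphatic endothelial cells had none. At this depth macrophage Tyro3 was not detectable in HFpEF-scr and HFpEF-FoxO1-sh, where 3 counts would be 0.297 and 0.227 CPM.

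Macrophages were not uniform for these genes. Their 9 clusters were grouped by whether Folr2, else Spp1, else H2-Eb1 was among a cluster's 10 leading genes. Folr2 (4 clusters) is a marker of resident macrophages, H2-Eb1 (4 clusters) a class II antigen-presentation gene, and Spp1 (1 cluster) encodes osteopontin. The Folr2 group held 53.8%, 47.3% and 50.4% of macrophages, the H2-Eb1 group 42.5%, 46.5% and 45.9%, and the Spp1 group 3.7%, 6.2% and 3.7%. The grouping was made after the clusters were seen, without these 8 genes, and shares with 1 library per group have no test.

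Gas6 differed most between these groups. It was at 621, 554 and 616 CPM in the Folr2 group, 145, 134 and 143 CPM in the H2-Eb1 group and 27.5, 27.8 and 65.5 CPM in the Spp1 group. Pros1 followed with 140, 152 and 129 CPM, 57, 61.7 and 52.1 CPM, and 22.5, 37.4 and 30.6 CPM. Mertk was at 69.3, 64.2 and 72.1 CPM in the Folr2 group and 40.6, 32.4 and 31.7 CPM in the H2-Eb1 group. Csf1r was at 1158, 1161 and 1136 CPM, 774, 720 and 724 CPM, and 464, 435 and 419 CPM. These 4 genes were thus higher in the Folr2 than in the H2-Eb1 group in all 3 libraries, with no overlap.

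Axl ran the other way. It was at 45.2, 44.2 and 44.4 CPM in the Folr2 group against 178, 173 and 167 CPM in the H2-Eb1 group and 145, 140 and 136 CPM in the Spp1 group. Between libraries these levels moved far less than between groups. In single macrophages, a Gas6 UMI was seen in 80.8%, 74.7% and 83.9% of those with a Mertk UMI and in 64.3%, 56.4% and 59% of those without. The cells with Mertk were deeper, at medians of 7560, 6686 and 7380 UMIs against 6348, 5721 and 5977, which works in the same direction. For Axl the order was reversed at like depth, with Gas6 in 55%, 44.2% and 51.4% of cells with an Axl UMI and 78.2%, 71.2% and 74% of cells without (median depths 6730, 6084 and 6410 against 6607, 5886 and 6260 UMIs).

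**Figure D4:**
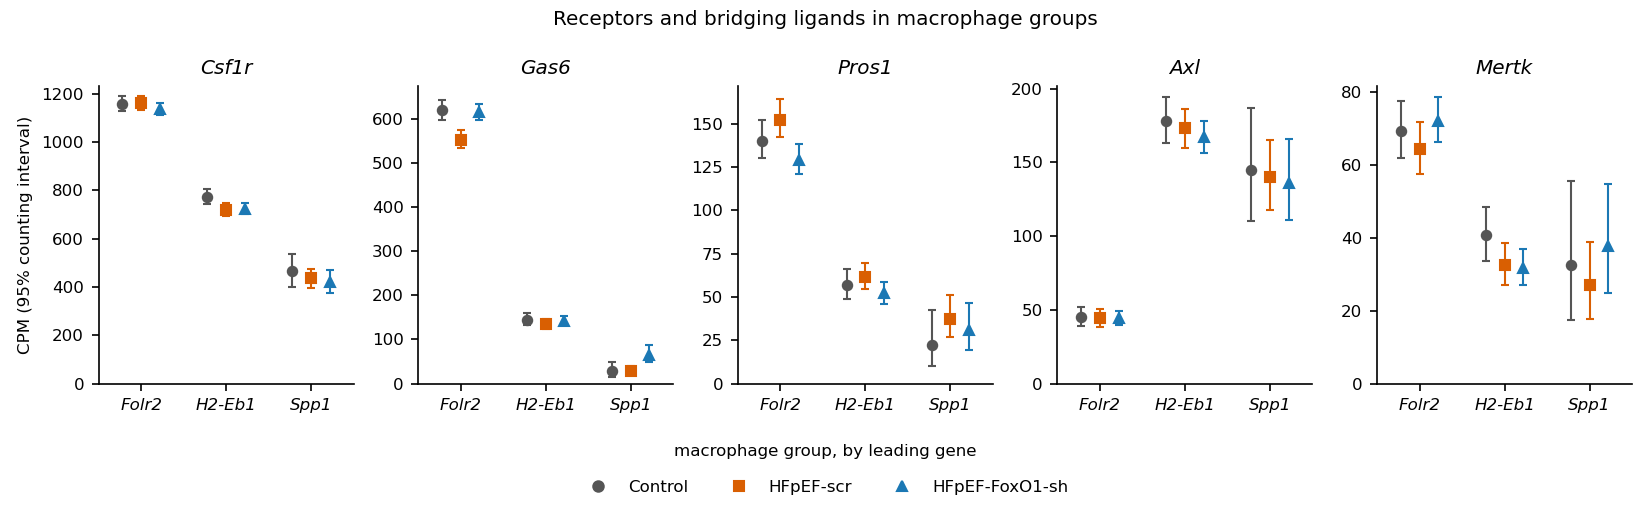
CPM of Csf1r, Gas6, Pros1, Axl and Mertk in 3 macrophage groups, each named by a gene among its clusters' 10 leading genes. Each group has 1 point per library with its 95% counting interval, and axes start from 0. Csf1r, Gas6, Pros1 and Mertk were highest in the Folr2 group and Axl was lowest there (44.2 to 45.2), in each library.

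The first comparison asks what the HFpEF diet with the control vector changed, HFpEF-scr over Control. The second asks what the FoxO1 hairpin changed on that diet, HFpEF-FoxO1-sh over HFpEF-scr. They share the HFpEF-scr library, so a value that is high or low in that library alone appears in both with opposite signs. No group has a second library, so differences have neither a replicate check nor a test, and each ratio compares 2 libraries. To be called, a gene needed at least 20 UMIs over both libraries, a ratio of CPM of 1.5 or more in either direction and an exact 95% counting interval that left out 1.

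In macrophages none of the members was called in these 2 comparisons. Of the 6 with enough UMIs, 0 were called in HFpEF-scr over Control, where 3.73% of all 11378 genes measured in macrophages were, and 0 in HFpEF-FoxO1-sh over HFpEF-scr, where 3.74% of 11759 were. The median log2 ratio of these 6 was -0.05 and then 0.12, beside -0.02 and 0.05 over all genes. Gas6, the farthest from 1 among those with over 100 UMIs, was 0.804 times its Control level in HFpEF-scr (interval 0.766 to 0.844) and then 1.22 times its HFpEF-scr level in HFpEF-FoxO1-sh (interval 1.17 to 1.27). Inside the Folr2 group these ratios were 0.893 and 1.11, and inside the H2-Eb1 group 0.924 and 1.07, closer to 1 than over all macrophages. The Folr2 group, which is rich in Gas6, had its smallest share of macrophages in HFpEF-scr. The part of these shares in the Gas6 ratios was not tested. Mertk followed Gas6 with 0.839 (interval 0.737 to 0.957) and 1.15 (interval 1.02 to 1.29), and with the mitochondrial limit at 10% its first ratio was 0.579 and called.

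Csf1r in macrophages was near 1 in both comparisons, at 0.929 (interval 0.901 to 0.958) and 1.03 (interval 1 to 1.06), the latter 0.992 when totals left out mitochondrial and haemoglobin genes. Pros1 had 1.01 and 0.904, and Axl 1.05 and 0.914. Csf1 had 1.57 (interval 0.801 to 3.24) and 1.45 (interval 0.901 to 2.38), so neither interval excluded 1 on 14, 28 and 53 UMIs. With every cell thinned to 1000 UMIs, 2 Csf1 UMIs were left in Control and 3 in HFpEF-scr, and another draw gave a ratio of 0.543, so the thinned counts give no direction. HFpEF-FoxO1-sh over Control, with a ratio of 2.28 (interval 1.25 to 4.46), was called for Csf1, where 3.13% of genes were. In the Folr2 group that ratio was 2.38 (interval 1.01 to 6.48, on 27 and 7 UMIs), where 3.12% were. In the Spp1 group alone, Gas6 was 2.35 times higher in HFpEF-FoxO1-sh than in HFpEF-scr (interval 1.45 to 3.88), on 47 and 29 UMIs in 73 and 95 cells, where 7.79% of all genes were called. Over Control it was 2.38 times higher (interval 1.22 to 5.1, on 47 and 11 UMIs), where 7.68% were.

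Markers of other cell types in macrophages were read beside these ratios. The 13 fibroblast markers, all detected, summed to 240, 227 and 242 CPM. The 14 endothelial markers, also all detected, summed to 64.3, 108 and 55.1 CPM and the 9 erythroid markers in the files to 163, 308 and 151 CPM, both highest in HFpEF-scr. The 7 lymphatic endothelial markers in the files summed to 628, 367 and 583 CPM, but without Lyve1, which resident macrophages also express, the other 6 came to 4.52, 6.23 and 7.88 CPM. Lyve1 itself was at 623, 361 and 575 CPM, lowest in HFpEF-scr as Gas6 was. The part of any of these in the Gas6 ratios was not tested.

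In fibroblasts Il34 was the one member called. It was at 3.02 CPM in Control, 5.91 CPM in HFpEF-scr and 3.76 CPM in HFpEF-FoxO1-sh, on 166, 342 and 272 UMIs, so that HFpEF-scr was high and the other libraries lay close. HFpEF-scr was 1.96 times higher than Control (interval 1.62 to 2.37), where 4.24% of 14530 genes measured in fibroblasts were called. HFpEF-FoxO1-sh was at 0.635 of HFpEF-scr (interval 0.54 to 0.747), where 3.9% of 14716 genes were called. Thus 1 of 8 members was called in each comparison. HFpEF-FoxO1-sh over Control was 1.24 (interval 1.02 to 1.52), below the limit of 1.5, where 3.38% of genes were called. A UMI of Il34 was seen in 1.66%, 3.16% and 2.18% of fibroblasts.

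In each of the 6 fibroblast clusters the Il34 level was highest in HFpEF-scr, and in 3 of them the difference from Control was called. The cluster led by Smoc2 and Htra3 had 7.01, 10.1 and 5.95 CPM and that led by Cilp and Cst6, matrix genes of activated fibroblasts, 6.03, 10.1 and 6.86 CPM. The clusters led by Cxcl14 with Dpep1 and by Cxcl14 with Inmt had 3.22, 5.78 and 4.57 CPM and 1.26, 4.26 and 2.05 CPM. HFpEF-scr over Control was called in the Cilp cluster (1.68, interval 1.22 to 2.35) and in both Cxcl14 clusters (1.79, interval 1.11 to 2.94, and 3.37, interval 1.79 to 6.72), where 3.52%, 3.61% and 3.59% of all genes were called. HFpEF-FoxO1-sh over HFpEF-scr was called in the cluster with Inmt (0.482, interval 0.282 to 0.812) and in the Smoc2 cluster (0.589, interval 0.357 to 0.943), where 3.2% and 4.39% of all genes were called. The Igfbp3 cluster rested on 3, 7 and 4 UMIs. The Cilp cluster made up 14.1%, 20.5% and 15% of fibroblasts, and without it the ratios over all fibroblasts were 1.92 and 0.667, the latter no longer called. In the unnamed Wif1 cells Il34 had 3.69, 2.85 and 4.88 CPM, the opposite order, on 22, 16 and 26 UMIs and with no call.

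The marker sums of other classes with Il34 were read in fibroblasts too. The 12 pericyte markers summed to 425, 389 and 395 CPM in fibroblasts, the 10 Schwann markers to 67.5, 71.5 and 71 CPM, and the 11 smooth muscle markers to 110, 106 and 110 CPM. The 14 endothelial markers summed to 111, 162 and 160 CPM, lowest in Control and about level in the other libraries, where Il34 differed. Their part in the Il34 ratios was not tested.

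The other members in fibroblasts were within 1.5 times over all their cells. Csf1r was farthest from 1 among them, at 1.4 (interval 0.933 to 2.13) and 0.773 (interval 0.533 to 1.12), on 42, 62 and 60 UMIs. Under the alternatives its first ratio ranged from 1.11 to 5.54, the highest with the mitochondrial limit at 10%, and its second from 0.467 to 0.966. It was called in both comparisons with doublets kept, at 1.6 and 0.467. Csf1 had a ratio of 1.15 (interval 1.1 to 1.19) and then 1.02, Axl 1.07 and 1.08, Pros1 1.06 and 0.995, and Mertk 1.08 and 1.07. Gas6 had 0.877 (interval 0.854 to 0.9) and 1.07 (interval 1.05 to 1.1), and Tyro3 1.21 and 0.925. In the Cilp cluster Tyro3 was 1.67 times as high in HFpEF-scr as in Control (interval 1.22 to 2.3), on 143 and 59 UMIs. In the Igfbp3 cluster, where 3.14% of all genes were called, Mertk was 2.08 times as high (interval 1.22 to 3.58) and Csf1r 4.5 times (interval 1.55 to 15.8), on 36 and 26 UMIs and on 15 and 5 UMIs. The median log2 ratio of the 8 was 0.15 and then 0.01, beside -0.02 and 0.05 over all genes.

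**Figure D5:**
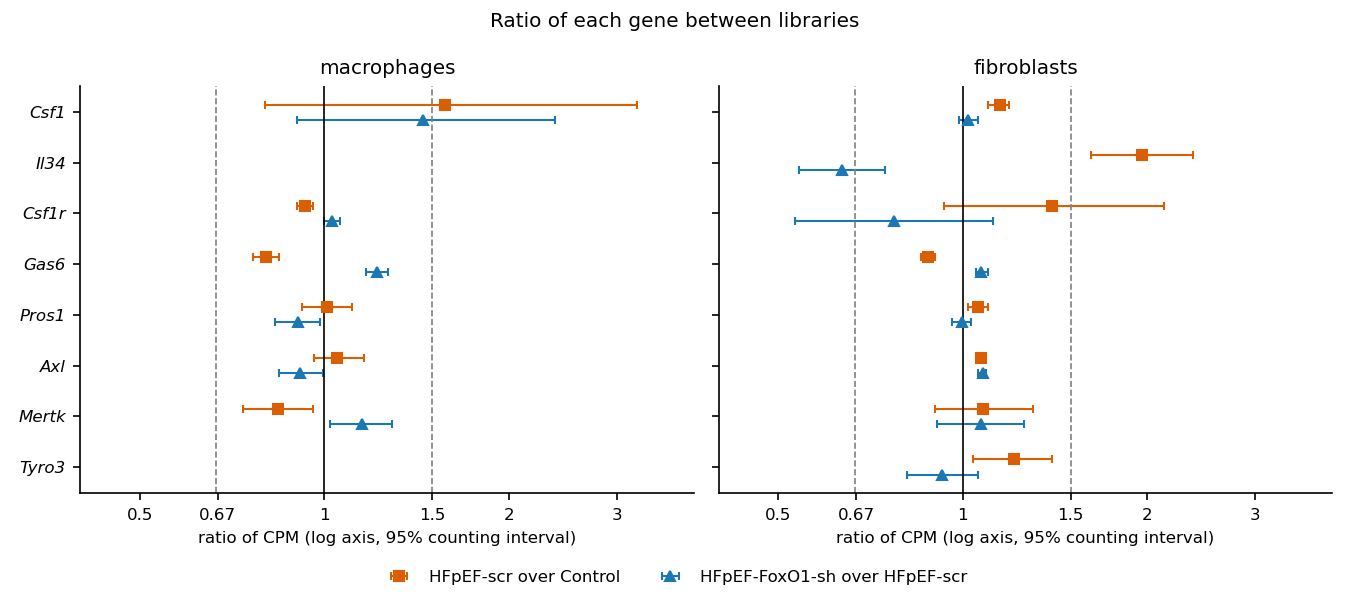
Ratio of CPM between libraries (log axis) with 95% counting intervals for members with at least 20 UMIs, in macrophages and in fibroblasts; dashed lines mark 1.5 either way. Il34 in fibroblasts was past them in both comparisons (1.96 and 0.635), and in macrophages Gas6 and Mertk were below 1 in the first and above 1 in the second.

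In the other classes calls of members other than Csf1r, which is described above, rested on few UMIs, apart from Gas6 in the Wif1 cells. Gas6 in Schwann cells was at 64.5, 30.1 and 16.1 CPM on 28, 17 and 11 UMIs, with HFpEF-scr at 0.466 of Control (interval 0.239 to 0.882). Lymphatic Axl went from 24 to 9 and 27 UMIs (0.436, interval 0.178 to 0.972, then 2.69, interval 1.23 to 6.51), and lymphatic Mertk from 11 to 21 UMIs in the first comparison (2.22, interval 1.02 to 5.1). Endocardial Tyro3 was 2.19 times higher in HFpEF-FoxO1-sh than in HFpEF-scr on 23 and 10 UMIs (interval 1 to 5.15). Monocyte Gas6 had 23 UMIs in HFpEF-scr and none in HFpEF-FoxO1-sh, and its 23 lay in the Plac8 cluster. Erythroid Il34 was called higher in HFpEF-scr than in Control, where 5.08% of all genes were called. It was at 5.06 and 1.33 CPM, on 18 and 3 UMIs. Of all genes, 4.79% were called in Schwann cells, 4.21% and 4.43% in lymphatic endothelial cells in turn, 5.03% in endocardial cells and 6.64% in monocytes. In HFpEF-FoxO1-sh over Control, Il34 in smooth muscle was 1.56 times as high (interval 1.01 to 2.43) and Axl in dendritic cells 1.76 times (interval 1.1 to 2.87), where 4.56% and 6.42% of all genes were called. In the same comparison Csf1r was lower in smooth muscle (0.251, interval 0.122 to 0.474) and in endothelial cells (0.41, interval 0.273 to 0.604), and Gas6 in Schwann cells (0.25, interval 0.112 to 0.518). Of all genes in endothelial cells 5.15% were called there, and in Schwann cells 7.23%. The 12 pericyte markers summed to 2423, 3206 and 3291 CPM in smooth muscle, the same order as its Il34 levels. Their part in the smooth muscle Il34 ratio was not tested. In the Wif1 cells Gas6 was 1.61 times higher in HFpEF-FoxO1-sh than in HFpEF-scr (interval 1.51 to 1.73), on 2160 and 1409 UMIs, where 3.86% of all genes were called.

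Around these members, 115 genes of the same system were read from 6 lists, chosen as the members were. In macrophages 6 of 100 measured were called in HFpEF-scr over Control, 5 higher and 1 lower, beside the 3.73% of all genes. Arg1 (arginase, 5.51 times, on 56 and 8 UMIs), Il10 (2.87 times), the shedding inhibitor Timp3 (2.07 times), the lipid receptor Cd300lf (1.92 times) and Lgals3 (galectin-3, 1.55 times) were higher. Timd4, the phosphatidylserine receptor of long-lived resident macrophages, was lower, at 140 CPM in Control and 75.1 CPM in HFpEF-scr (0.535 times, interval 0.488 to 0.588).

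In HFpEF-FoxO1-sh over HFpEF-scr 10 of 100 were called in macrophages, 1 higher and 9 lower, beside 3.74% of all genes. Timd4 was the higher one, at 135 CPM or 1.79 times (interval 1.65 to 1.96). Arg1 (0.123), Cd300lf (0.231), Thbs1 (0.338, a bridging molecule of the CD36 route), Timp3 (0.533), Il10 (0.572), and the cholesterol exporter Abcg1 (0.626) were lower, as were Cd24a (0.439) and Cd22 (0.383). Lgals3 (0.633) completes the count and was named after its value was seen. None of the 22 genes of CSF1R signalling and macrophage transcription factors was called in either comparison, and their median log2 ratio was 0.02 in both. The Spp1 group had its largest and the Folr2 group its smallest share of macrophages in HFpEF-scr. The part of these shares in the calls was not tested. Within the Folr2 group alone 5 of 94 and 6 of 93 list genes were called in the 2 comparisons, beside 4% and 3.73% of all genes. Within the H2-Eb1 group 2 of 94 and 4 of 95 were, beside 4.19% and 3.98%. These counts are of 6 genes or fewer with 1 library per condition, so no contrast between the macrophage groups is drawn. Within the Spp1 group 13 of 90 were called in HFpEF-FoxO1-sh over HFpEF-scr, beside 7.79%.

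In fibroblasts 5 of 99 list genes were called in HFpEF-scr over Control, beside 4.24% of all genes. Csf2rb (2.22 times, on 35 and 15 UMIs), Ucp2 (1.76 times) and Cd36 (1.62 times) were higher, and Slc2a1 (0.518) and Pparg (0.62) were lower. In HFpEF-FoxO1-sh over HFpEF-scr 6 of 100 were called, 3 higher and 3 lower, beside 3.9%. With totals that left out mitochondrial and haemoglobin genes the split was 2 higher and 5 lower. Cx3cr1 (1.93 times), Lgals3 (1.59 times) and Myc (1.52 times) were higher, and Ptprz1 (0.399, a receptor of Il34, on 11 and 22 UMIs), S1pr1 (0.419) and Spi1 (0.609) were lower. The median log2 ratio of all list genes was 0.04 and 0.01. All 8 genes of vitamin K carboxylation and receptor shedding were measured in fibroblasts and none was called in either comparison. Among them are enzymes that make Gas6 and Pros1 active, proteases that cut the TAM receptors, and the shedding inhibitor Timp3.

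Last, the genes whose pattern over 36 class and library sums was most like each member were found among 12694 genes, as a Pearson correlation of log2(CPM + 1). These points share libraries and depth, and the values are a description. Csf1r was most like Cd300ld (0.98), Lyz2 (0.97) and Fcgr3 (0.97), all myeloid genes. Csf1 was most like Pxdn, Fam198b and Ghr (0.95 each), and Il34 like Art3 (0.94), Atp1b2 (0.93) and Cspg4 (0.92). Gas6 was most like Trim47 (0.94), Itga9 (0.93) and Slc29a1 (0.91), Pros1 like Leprot, Mgat4b and App (0.96 each), and Axl like Cbr3 (0.93), Plxdc2 (0.93) and Steap3 (0.92). Mertk was most like Idh2 (0.89), Nes (0.88) and Maoa (0.87), and Tyro3 like Pja1 (0.91), 4933431E20Rik (0.89) and Rcn1 (0.86). Lyz2, Art3 and Cspg4 were among the markers that name the classes.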

How the data were processed

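Cells of the left ventricle were profiled in 3 droplet libraries, 1 per group. The deposited matrices hold UMI counts per gene and barcode, not normalized, per the file headers. Cell Ranger 6.1.2 and mm10 are named in the submitters' processing notes, and whether counting used strand is not given in the sources used here. Barcodes were kept from 500 UMIs and 300 genes upward if no more than 20% of UMIs were mitochondrial. Scrublet (expected share 12%) then removed 1.41% of cells from Control, 2.29% from HFpEF-scr and 3.09% from HFpEF-FoxO1-sh. Cells were clustered with scanpy 1.11.5 and igraph 0.11.9 (2000 variable genes without the members, 30 components, 15 neighbours, resolution 1.0), and clusters were named from marker lists. Clusters whose median doublet score was over 0.2 were set aside, a rule set after the clusters were seen.

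The UMIs of each class in each library were added up and given as CPM. Levels have exact Poisson intervals, shares exact Clopper-Pearson intervals and ratios exact conditional binomial intervals, all at 95%. They cover counting error only, since a cell's UMIs come together, and a count of 0 allows up to 3 counts. No test was possible, so no p-value is given. In bulk sums of a class, fewer expressing cells and less RNA per cell cannot be told apart. Named genes were all members, up to 3 called genes with the largest ratio per list and comparison, and the 3 genes most like each member. The members and lists were chosen with earlier results of these data known. Computation used Python 3.11.15, numpy 2.4.6, pandas 2.3.3 and scipy 1.17.1. The 12 alternatives listed at the outset and 4 added after seeing the data are described in the closing section.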

Additional observations from a re-analysis of the deposited data

Results flagged for a closer look

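Csf1r moved in opposite directions between cell classes in HFpEF-FoxO1-sh over HFpEF-scr. Its ratio was 3.41 in endothelial cells and 0.4 in smooth muscle, on 38 and 16 and on 12 and 30 UMIs. These UMIs lay in 10 and 8 endothelial cells and in 4 and 10 smooth muscle cells. In the erythroid class, whose barcodes hold fibroblast RNA, it was 0.137 on 2 and 24 UMIs. The difference between classes was not tested, and C1qa moved with Csf1r in endothelial cells (from 11.8 to 72.2 CPM) and smooth muscle (from 75.7 to 17.1 CPM).

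Some levels in cells outside the compared classes were, in all 3 libraries, above the highest value of any compared class. The values below are medians of the libraries. Csf1 was at 263 CPM in mesothelial cells, the outer lining of the heart, and at 241 CPM in unnamed cells led by Ccl2 and Timp1. It was at 907 CPM in unnamed cells led by Ccl3 and Ccl4, against 93 CPM at most in the compared classes. The last value rests on 7, 10 and 8 cells with 22, 32 and 18 UMIs. Il34 was at 102 CPM in pericytes, against 50.7 CPM at most in the compared classes.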

How the results depend on the processing

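Across the 16 alternatives, 290 of 348 recomputed member ratios stayed within the counting interval of the reported value. Of the reported ratios recomputed here, only those of Il34 in fibroblasts were called, and 0 of their recomputed values turned direction. Of the ratios that were not called, 24 recomputed values lay on the other side of 1. Percentages below are the share of all genes called under the same setting. No paired analysis was possible because each group has 1 library and no test. With the mitochondrial limit at 10%, 1 member (Mertk) was called in macrophages in HFpEF-scr over Control, list genes called in macrophages in HFpEF-FoxO1-sh over HFpEF-scr came to 18 of 97 (8.74%), and list genes in fibroblasts in HFpEF-scr over Control to 8 of 83 (5.13%). With the limit at 50%, list genes in macrophages in HFpEF-FoxO1-sh over HFpEF-scr came to 5 of 100 (3.96%). With every cell weighted alike, calls went by the ratio and the minimum of UMIs alone, without an interval. Under this laxer rule 1 member (Csf1) was called in macrophages in HFpEF-scr over Control, and 8 of 99 list genes in fibroblasts (7.76%). With doublets kept, 2 members (Il34 and Csf1r) were called in fibroblasts in each comparison, with 14 of 107 and 11 of 108 list genes (4.96% and 4.76%). Thinned to 1000 UMIs per cell, 2 of 87 and 4 of 88 list genes were called in macrophages (4.34% and 3.87%), and 0 members in fibroblasts in HFpEF-FoxO1-sh over HFpEF-scr. At a ratio of at least 2, macrophages had 3 and 5 list genes (1.47% and 1.65%), and fibroblasts 0 and 0 members and 1 and 2 list genes (1.65% and 1.54%). Of the alternatives added after seeing the data, the H2-Eb1 group alone gave 2 and 4 list genes (4.19% and 3.98%), the Folr2 group alone 6 in HFpEF-FoxO1-sh over HFpEF-scr (3.73%), and fibroblasts without the Cilp cluster 0 members in that comparison. Apart from what the settings fix by construction, the cause of these changes was not tested. Thinning leaves fewer UMIs, the higher ratio is stricter, and the call rule under equal weighting is laxer. Il34 in fibroblasts ranged from 1.92 to 3.7 in HFpEF-scr over Control and from 0.506 to 0.667 in HFpEF-FoxO1-sh over HFpEF-scr. Counts of 20 to 100 UMIs limit Tyro3, Il34 and Csf1 outside the cells that hold most of them.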

Other observations

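In the class sums of mesothelial cells Csf1r stood to C1qa above the macrophage ratio. Their Csf1r was at 64.4 CPM in Control, 52.4 CPM in HFpEF-scr and 63.8 CPM in HFpEF-FoxO1-sh, with 2537, 553 and 1175 Csf1r UMIs per 1000 C1qa UMIs, against 153, 156 and 137 in macrophages. Of mesothelial cells without a C1qa UMI, 52 of 106 (49.1%, interval 39.2 to 59), 15 of 43 (34.9%, interval 21 to 50.9) and 30 of 84 (35.7%, interval 25.6 to 46.9) had a Csf1r UMI. The same share in fibroblasts was 0.474%, 0.596% and 0.481%, at median depths of 6748, 6442 and 6814 UMIs against 12488, 10659 and 9298 in mesothelial cells. The same cells had Csf1 at 263, 316 and 245 CPM and Gas6 at 785, 528 and 663 CPM, in each library above its endocardial cells. With 45 mesothelial cells in HFpEF-scr they were below the size set for comparison.

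Neutrophils, at 32, 78 and 104 cells, had Csf1 at 36.8, 63 and 149 CPM on 4, 21 and 38 UMIs. Their Csf1r was at 120, 225 and 82.3 CPM on 13, 75 and 21 UMIs, beside 0, 256 and 10 C1qa UMIs. The part of macrophage RNA in these levels was not tested. Of neutrophils without a C1qa UMI, 31.2%, 28.6% and 15.7% had a Csf1r UMI.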
